A study of Mus musculus with 20 samples.

Results

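The small intestine data comprised 6 of the 20 arrays of the series, from tissue labelled as whole duodenum, of 3 mice labelled Irgm1-/- and 3 wild type (WT) mice. They were chosen by their tissue label, without the use of any measured value. All mice were on a C57BL/6 background, ate autoclaved chow and lived in a barrier facility free of specific pathogens. Irgm1-/- mouse 1 was male and 6 weeks old, mouse 2 male and 8 weeks old, and mouse 3 female and 6 weeks old. The WT mice were all female, of 6, 8 and 6 weeks in the same order. Genotype and sex are therefore partly confounded, and the female Irgm1-/- mouse is the only animal whose sex matches the WT group. The question, from the title of the series, was which interferon-stimulated genes are raised in mice without Irgm1. The allele and the deleted stretch of Irgm1 are not given in the sources used here.

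Irgm1 is an immunity-related GTPase (IRG). Interferons induce it, it sits on internal membranes, and it restrains the effector GTPases of its own family and takes part in autophagy. Interferons act through receptors at the cell surface that switch on the Jak kinases and transcription factors such as Stat2 and Irf9. These bind interferon-stimulated response elements in promoters and raise a broad set of antiviral genes. The wall of the small intestine holds absorptive enterocytes, goblet cells, hormone cells, Paneth cells in the crypts, immune cells of the lamina propria and smooth muscle, so RNA from all of them was measured together. In such bulk RNA, fewer cells of a type and less RNA per cell cannot be told apart.

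The arrays of the Irgm1-/- group were brighter. Their 75th percentile of intensity was 4689.5, 3867.9 and 4533.6, against 2321.5, 3204.4 and 2763.2 on the WT arrays, and 58.3% to 62.1% of probes were well above background against 52.6% to 57%. Levels are therefore given as signal relative to each array, scaled so that its 75th percentile is 1000. Correlations between arrays over tested genes lay between 0.951 and 0.990. The labelled sex matched the sex genes on all 6 arrays: the signal of Xist was 6.1 and 9 on the male arrays and 237.2 to 509.6 on the female arrays. The duodenal label was checked against 9 markers of the region, of which Pdx1, a factor that defines the duodenum, had no array well above background. Cybrd1, Gata4, Fabp1, Cck and secretin (Sct) were detected on all 6. The bile acid genes Fabp6, Slc10a2 and Fgf15, known for the distal small intestine and looked up after the values were seen, were also well above background on all 6 arrays. Fabp6, the ileal bile acid binding protein, had a signal of 117669.2, 121088.6 and 107088.6 against 183129.6, 137843.3 and 161270.5. The segment that was sampled was not tested, and the tissue is called small intestine throughout. Over all 15397 tested genes the median difference between the groups was -0.09 on the log2 scale.

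Irgm1 itself was higher on the arrays labelled Irgm1-/-, and whether this goes against the label cannot be told from these probes. Its signal in the 3 Irgm1-/- mice was 4480.4, 4250.3 and 4722.3, against 1949.7, 2144.3 and 1918.9 in WT. The groups did not overlap. The log2 difference was 1.16 (SE 0.13, n = 3 per group; limma, Benjamini-Hochberg adjusted p = 0.0396). Another probe of the gene differed by 1.18, with signals of 1425.6, 1400.9 and 1815.8 against 360.2, 1020.5 and 840.8. Neither probe could be placed inside or outside the deleted stretch, a probe outside it would check nothing, and all groups are named as labelled. Blocking by mouse number (adjusted p = 0.187) or slide (0.0657) or adding a sex term (0.629) ended the call, while the difference stayed between 1.06 and 1.30 in all 22 alternative settings.

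With limma and Benjamini-Hochberg adjustment, 29 of 15397 tested genes rose in the Irgm1-/- group (0.188% of genes tested) and 0 fell (0%). At an unadjusted p under 0.05 there were 435 higher genes (2.83%) and 660 lower genes (4.29%). For 6 of the 29, no WT array was well above background and only a bound is measured; with these at their bounds, 27 differed at least 2-fold and 13 at least 4-fold. In each of the 29, every Irgm1-/- mouse lay above every WT mouse. The 29 were picked on these same values, so this separation is no further support. Of all genes, 5.07% showed it in this direction and 12.8% in the other. The female Irgm1-/- mouse was the highest of its group in 24 of the 29 genes, and against the mean of the WT mice its fitted difference ran from 1.24 to 5.93 on the log2 scale. Of the 29, 22 belonged to the 16 lists of interferon-related genes, which held 186 of the 15397 tested genes. The lists were chosen with earlier results of these data known, so this count is no independent test. Counts in the lists below are to be read beside the shares of all tested genes given here.

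The calls rest on few animals. Same-numbered mice deviated together, and blocking by mouse number left 1 call, Thg1l (adjusted p = 0.00394), as 28 of the 29 calls ended (0.0581 to 0.187). With sex as a term 28 ended as well (0.0921 to 0.629), and Thg1l was at 0.00464. Without Irgm1-/- mouse 1, 2 or 3 there were 2 calls each time, and without WT mouse 1, 2 or 3 there were 49, 11 and 4. All 29 differences stayed above 0 in each alternative setting that tested the gene (21 or 22 settings per gene). This is no independent support, as the settings share the same small intestine arrays. The groups did not overlap in any of the 29, so leaving out an array, blocking, filtering or changing the variance model could not reverse the sign.

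**Figure D1:**
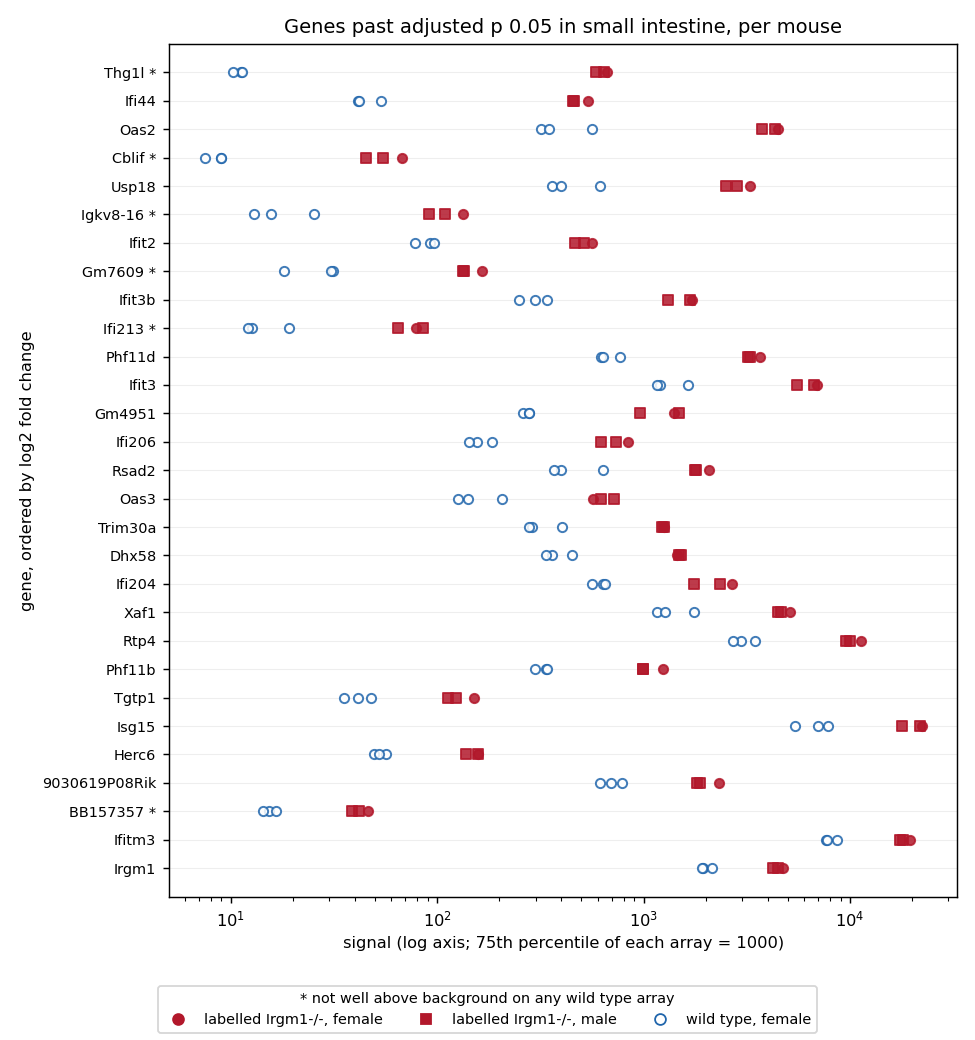
Signal of the 29 genes past an adjusted p of 0.05, with 1 point per mouse on a log axis (75th percentile of each array = 1000); genes are ordered by log2 fold change. Filled red points are the mice labelled Irgm1-/- (square, male; circle, female) and open blue circles the WT mice, and the groups do not overlap in any of the 29 rows.

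**Figure D2:**
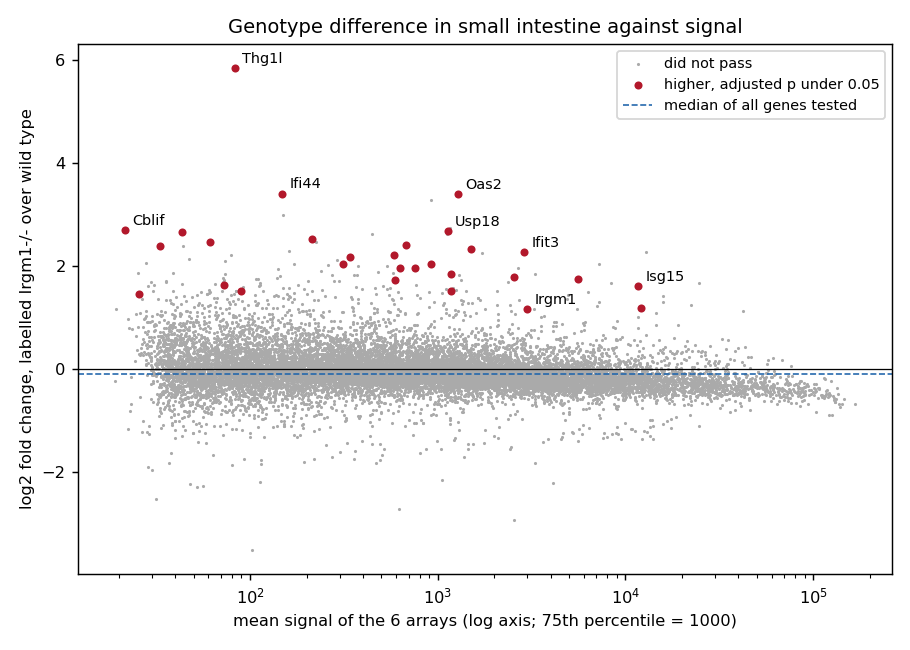
Log2 fold change of the 15397 tested genes (labelled Irgm1-/- over WT) against the mean signal of the 6 arrays on a log axis. The 29 genes past the threshold (red) all lie above 1 by their fitted values, the dashed line marks the median of all genes at -0.09, and the cloud bends below 0 at the highest signals.

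Of the 29 genes that rose, 20 had a promoter in the RefSeq table of assembly GRCm38.p6, and the 250 bases before each gene's start were searched on both strands. The core of the interferon-stimulated response element, that is GAAA, any 2 bases and GAAA again, was present in 11 of the 20 (55%), against 3.26% of the 11581 other tested genes in the table and 3.46% of all 27025 genes in it. A longer form, the core followed directly by CT, was present in 5 of the 20 (25%), against 0.33% of the other tested genes. The gamma-activated site TTCNNNGAA, known from promoters that answer interferon gamma, was present in 3 of the 20 (15%), against 7.32% of the other tested genes, and it overlapped the core in 0 of the called genes. These matches describe letters in the window and not bound sites. Ifit3 and its near copy Ifit3b, Isg15, Rsad2 and Irgm1 are shown because their windows hold the core, and Thg1l because it had the largest difference and its window does not. Sequences run 5′ to 3′ on the gene's strand, with the matches of the core in capitals. The windows are chr19:34583279-34583528 (+) for Ifit3, chr19:34607707-34607956 (+) for Ifit3b, chr4:156200819-156201068 (-) for Isg15, chr12:26456453-26456702 (-) for Rsad2, chr11:48871421-48871670 (-) for Irgm1 and chr11:45955504-45955753 (-) for Thg1l.
Ifit3: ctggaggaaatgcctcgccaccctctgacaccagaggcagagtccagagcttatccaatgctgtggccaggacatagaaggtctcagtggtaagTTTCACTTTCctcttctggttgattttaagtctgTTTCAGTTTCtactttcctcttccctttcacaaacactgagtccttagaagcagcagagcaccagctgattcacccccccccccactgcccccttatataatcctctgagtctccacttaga
Ifit3b: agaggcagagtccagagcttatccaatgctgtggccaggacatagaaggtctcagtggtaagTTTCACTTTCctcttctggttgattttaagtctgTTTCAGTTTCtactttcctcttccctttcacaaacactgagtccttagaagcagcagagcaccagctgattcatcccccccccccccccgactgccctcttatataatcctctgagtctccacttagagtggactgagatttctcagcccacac
Isg15: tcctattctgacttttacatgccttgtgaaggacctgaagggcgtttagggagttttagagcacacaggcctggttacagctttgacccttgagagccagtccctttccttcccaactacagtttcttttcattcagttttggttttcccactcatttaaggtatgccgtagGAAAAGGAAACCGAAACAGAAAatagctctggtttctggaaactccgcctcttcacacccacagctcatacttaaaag
Rsad2: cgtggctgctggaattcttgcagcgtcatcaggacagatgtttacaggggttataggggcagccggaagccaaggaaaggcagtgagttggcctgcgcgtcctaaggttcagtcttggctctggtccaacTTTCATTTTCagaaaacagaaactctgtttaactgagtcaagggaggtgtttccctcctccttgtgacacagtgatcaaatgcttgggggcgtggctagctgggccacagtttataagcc
Irgm1: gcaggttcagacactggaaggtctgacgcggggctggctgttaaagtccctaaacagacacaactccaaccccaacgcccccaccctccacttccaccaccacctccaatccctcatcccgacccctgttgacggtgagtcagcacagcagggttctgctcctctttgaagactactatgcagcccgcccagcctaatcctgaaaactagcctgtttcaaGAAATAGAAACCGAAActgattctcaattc
Thg1l: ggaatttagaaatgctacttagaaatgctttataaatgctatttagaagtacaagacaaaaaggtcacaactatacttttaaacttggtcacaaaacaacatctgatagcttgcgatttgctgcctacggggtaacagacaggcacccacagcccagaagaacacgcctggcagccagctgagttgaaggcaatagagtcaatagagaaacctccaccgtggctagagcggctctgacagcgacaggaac
In Ifit3 and Ifit3b the same pair of matches began at bases -156 and -122, and at -188 and -154, from the start. In Isg15, 3 overlapping matches began between -78 and -66. In Irgm1, 2 overlapping matches began at -30 and -24, and in Rsad2 the match began at -120.

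The largest difference was in Thg1l, the tRNA-histidine guanylyltransferase, which adds the guanosine that marks tRNA for histidine. Its signal in the Irgm1-/- mice was 587.9, 642.3 and 667.5, against 11.2, 11.4 and 10.3 in WT. Thg1l was well above background on every Irgm1-/- array and on no WT array. It was at least 18.1-fold higher (limma adjusted p = 3.11e-05), a bound set by the lowest signal called above background on each WT array. With normexp background correction its log2 difference was 3.16 and did not pass (adjusted p = 0.199).

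Thg1l and Irgm1 both lie on chromosome 11, with Thg1l 22 genes from Irgm1 in the RefSeq order of genes on the array. Of the 25 such genes on either side, 24 including Irgm1 were tested, and 3 rose: Thg1l, Irgm1 and the effector GTPase Tgtp1. The median difference of the 24 was 0.27. Genes between Thg1l and Irgm1 did not pass, among them Adam19, a membrane metalloprotease (log2 difference 0.31), and Havcr2, an immune checkpoint receptor (0.20). Rack1, a ribosome-associated scaffold 3 genes from Irgm1, differed by -0.49 (adjusted p = 0.663).

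Among the sensors of cytosolic nucleic acids, Dhx58 (LGP2), which tunes RNA sensing by its helicase relatives, rose by 1.97 (SE 0.16, adjusted p = 0.0136). Its signal was 1487.3, 1520.1 and 1455.7 against 452.5, 359.6 and 337.3. The spread in the Irgm1-/- group was small and the lowest of its mice lay above the highest WT mouse. The RNA sensors themselves did not pass: Ddx58 (RIG-I) differed by 0.47 and Ifih1 (MDA5) by 0.36 (adjusted p = 0.663 for both), and the adaptor Mavs by -0.31. Of 10 tested members of the RNA sensing list, 1 rose, against 0.188% of all tested genes, and the median was 0.32.

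In the DNA sensing list, 2 of 15 tested members rose, against 0.188% of all tested genes, and 14 lay above 0. The median was 1.07 (0.56 with normexp background correction). Ifi204, a HIN-200 family member that binds DNA in the nucleus and cytosol, had a signal of 2356.9, 1753.4 and 2681.9 against 565, 633.7 and 649.9, and rose by 1.86 (SE 0.19, adjusted p = 0.0291). Its other probe differed by 1.83. Ifi213 of the same family had 85.1, 64.9 and 79.3 against 19.1, 12.7 and 12.2, was well above background on no WT array, and was at least 2.18-fold higher (adjusted p = 0.0160). Its other probe had no array well above background. With normexp background correction Ifi213 stood at 0.41 and did not pass (0.681). Ifi206, another HIN-200 gene that the list did not hold, rose by 2.18 (SE 0.18, adjusted p = 0.0136). Relatives in the same gene cluster gave values on the same side without passing: Ifi211 at 1.5 (adjusted p = 0.0531), Mndal at 1.39 (0.130), Ifi208 at 1.29 (0.420) and Ifi203 at 1.28 (0.279). These genes are similar in sequence, and signal shared between their probes was not tested. The sensor Cgas (0.05) and its adaptor Sting1 (-0.00405) did not pass.

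The Ifit proteins bind viral RNA that lacks host cap marks. In this family 3 of 6 tested members rose, against 0.188% of all tested genes, all 6 lay above 0, and the median was 1.68. Ifit2 had a signal of 516.4, 465.2 and 560.7 against 77.9, 92.3 and 96.1 and rose by 2.54 (SE 0.15, adjusted p = 0.00645; 0.0590 when blocked by mouse number). Ifit3, a scaffold of the complex, had 6673.7, 5528.2 and 6938.6 against 1634.2, 1201.9 and 1161.1 and rose by 2.27 (SE 0.19, adjusted p = 0.0148). Ifit3b, its near copy, rose by 2.41 (SE 0.18, adjusted p = 0.0120); whether the probes tell the pair apart was not tested. Ifit1 was higher in each Irgm1-/- mouse (1972.1, 1299.1 and 1658.2 against 1001.6, 824.5 and 536.1), but its difference of 1.09 did not pass (adjusted p = 0.532). Ifit1bl2 overlapped between the groups, at 0.09.

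Oligoadenylate synthetases detect double-stranded RNA and make the messenger that activates RNase L. Of 10 tested members of this list, 2 rose, against 0.188% of all tested genes, and the median was 1.35. In 8 the groups did not overlap on the higher side, as in 5.07% of all tested genes. Oas2 had a signal of 4336.8, 3757.2 and 4488.7 against 564.1, 319.9 and 347.1. It rose by 3.40 (SE 0.24, adjusted p = 0.00875; 0.0590 with the block), and the WT mice varied more than the Irgm1-/- mice, with WT mouse 1 the highest of them. Oas3 rose by 2.04 (SE 0.22, adjusted p = 0.0338), from 207.1, 141 and 126.3 in WT to 619.2, 719.8 and 570.9. Others did not pass: Oasl2 at 1.49 (adjusted p = 0.0949), Oas1a at 1.42 (0.0900), Oas1c at 1.27 (0.135) and Oasl1 at 0.71 (0.543). Oas1b, the family member tied to flavivirus resistance, differed by -0.51, and its groups overlapped.

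Isg15 is a ubiquitin-like protein that is joined to other proteins. In the list of its pathway 3 of 6 tested members rose, against 0.188% of all tested genes. The median was 1.0 (0.48 with normexp background correction). Isg15 had a signal of 17786.4, 21824.5 and 22230.2 against 7835.6, 7031 and 5433 and rose by 1.62 (SE 0.19, adjusted p = 0.0439; 0.0765 with slide as a block). Usp18, which removes Isg15 and dampens the interferon receptor, had 2513.6, 2834 and 3277.9 against 614.5, 361.2 and 396.6 and rose by 2.68 (SE 0.24, adjusted p = 0.0160). Herc6, the mouse ligase of Isg15 (well above background on 2 of 3 WT arrays), rose by 1.52 (SE 0.14, adjusted p = 0.0160), and its other probe differed by 1.95. The conjugating enzymes did not pass, with Ube2l6 at 0.48 and Uba7 at 0.22.

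The list of other interferon-induced effectors held 40 tested genes, all above 0, with a median of 0.93. Of these, 8 rose, against 0.188% of all tested genes. In 31 the groups did not overlap on the higher side, as in 5.07% of all tested genes. Ifi44, a protein with antiviral activity, had a signal of 462.1, 454.9 and 536 against 53.7, 41.6 and 41.8. It rose by 3.41 (SE 0.17, adjusted p = 0.00217; 0.0581 with the block) and was past the threshold in 19 of 22 alternative settings. Rsad2 (viperin), which makes a chain-terminating nucleotide, had 1770.2, 1785.9 and 2084.2 against 638.8, 398.1 and 366.7 and rose by 2.05 (SE 0.24, adjusted p = 0.0407).

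Rtp4, a chaperone for receptors that interferons induce, rose by 1.76 (SE 0.16, adjusted p = 0.0160), from 3471, 2975.3 and 2703.2 to 9576.6, 10049.1 and 11249.1. Xaf1, which promotes apoptosis, rose by 1.79, and Trim30a, a ubiquitin ligase of the TRIM family, by 1.97 (adjusted p = 0.0321 and 0.0160). Phf11d and Phf11b, zinc finger proteins encoded in 1 cluster of similar genes, rose by 2.33 and 1.73 (adjusted p = 0.00726 and 0.0160). Ifitm3, a membrane protein that blocks entry of viruses, rose by 1.19 (SE 0.13, adjusted p = 0.0393), from 8658, 7693.3 and 7727.9 to 17431.3, 17970.6 and 19426.1, and was the only 1 of 5 tested Ifitm genes to pass. Slide as a block ended its call (0.0657). The antiviral GTPases Mx2 at 2.02 (adjusted p = 0.0888) and Mx1 at 0.92 (0.213), the tetherin Bst2 at 1.68 (0.123) and the RNA-dependent kinase Eif2ak2 at 0.68 (0.663) did not pass.

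Immunity-related and guanylate-binding GTPases act on the membranes of vacuoles that hold microbes. Of the 8 tested effector IRG genes 2 rose, against 0.188% of all tested genes, and the median of the 8 was 1.59. Tgtp1 had a signal of 113, 123.3 and 151.4 against 35.5, 41.6 and 47.6, was well above background on 1 WT array, and rose by 1.63 (SE 0.18, adjusted p = 0.0380). It stood at 0.51 under normexp and did not pass (0.592). Gm4951 rose by 2.21 (SE 0.20, adjusted p = 0.0160), from 259.3, 278.8 and 278.2 to 1482.9, 966.1 and 1397.2. Tgtp2, a near copy of Tgtp1 whose signal the probes may share, differed by 1.18 (0.580). Close to the threshold lay Iigp1 (1.54, adjusted p = 0.0531) and Gm12250 (Irgb10; 2.63, 0.0562), and in both every Irgm1-/- mouse lay above every WT mouse.

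The regulatory IRG genes related to Irgm1 did not pass. Igtp (Irgm3) had a signal of 6064.7, 7775 and 10188.4 against 4462.8, 3513.9 and 1826.4 and differed by 1.36 (adjusted p = 0.570). Irgm2 differed by 1.03 (0.663). For these genes the WT mice were widely spread and WT mouse 1 was the highest of them. None of the 11 guanylate-binding proteins rose under limma. At an unadjusted p under 0.05, 7 were higher, against 2.83% of all tested genes. The median of the 11 was 1.12 (0.66 with normexp background correction), with a range from -0.26 for Gbp5 to 2.30 for Gbp7. Gbp6 had 983.8, 982.6 and 1423.6 against 287.3, 383.3 and 252, and its difference of 1.88 missed the threshold (adjusted p = 0.0531). In the Schlafen family, regulators of immune cell growth and of tRNA, the median was 1.5 (0.46 with normexp background correction). In 5 of its 7 tested members the groups did not overlap on the higher side, as in 5.07% of all tested genes. Under limma 0 rose, and 5 were higher at an unadjusted p under 0.05, against 2.83% of all tested genes. Slfn4 differed by 2.05 (adjusted p = 0.116) and Slfn2 by 1.34 (0.185).

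**Figure D3:**
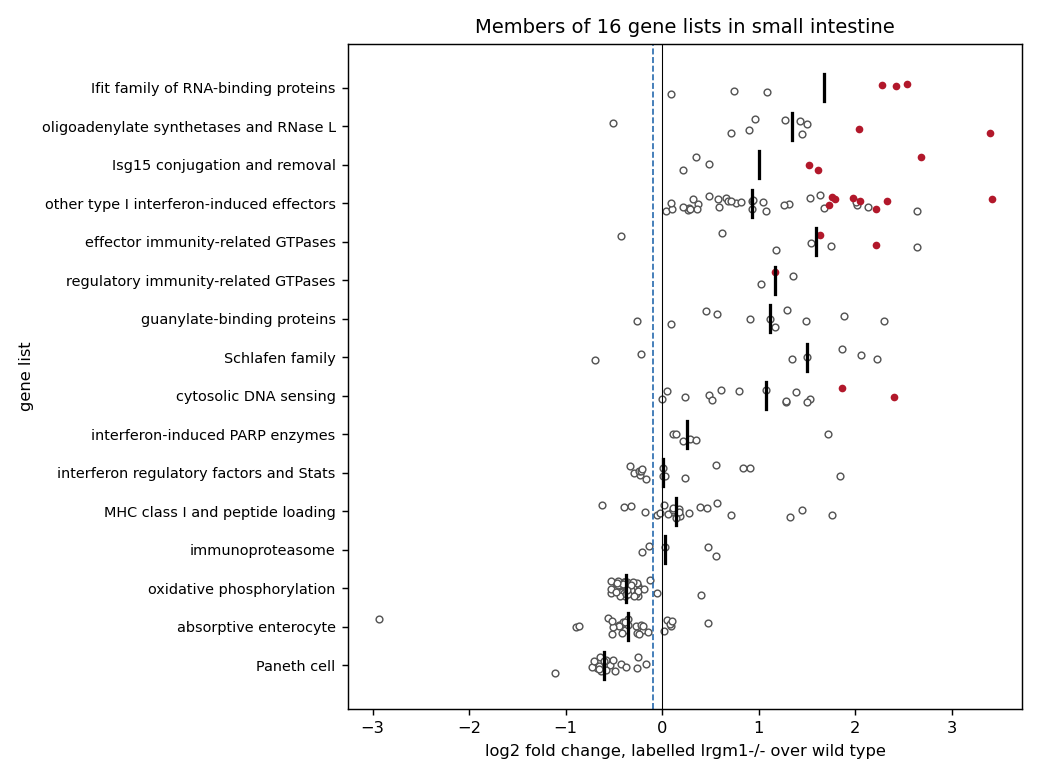
Log2 fold change (labelled Irgm1-/- over WT) of each tested member of 16 gene lists, with 1 point per gene; red points passed the adjusted p of 0.05, black bars are list medians, and the dashed line is the median of all genes. The 4 lists at the top (Ifit, oligoadenylate synthetase, Isg15 and other effectors) have medians from 0.93 to 1.68, and the oxidative phosphorylation, enterocyte and Paneth cell lists lie below 0 with no member past the threshold.

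Upstream of these genes, the list of interferon regulatory factors and Stats had a median of 0.005, which ran from -0.10 to 0.12 over the scalings, and 0 of 15 tested members rose or fell under limma (4 at an unadjusted p under 0.05). Irf7, the factor that amplifies type I interferon, had a signal of 5119.4, 6752.7 and 7084.1 against 990.2, 3110.8 and 1728.8. The groups did not overlap, WT mouse 2 was the highest of its group, and the difference of 1.84 did not pass (adjusted p = 0.352). Stat2 differed by 0.83 (0.271), and Irf9 by 0.56 (0.663). Irf1, Irf8 and Stat3, which also answer interferon gamma or other cytokines, differed by -0.29, -0.24 and 0.00495. Of 12 listed interferon genes 3 were tested, Ifnl3 (0.48), Ifna5 (-0.000917) and Ifnab (-0.16), and none passed. Ifnb1 and Ifng were not well above background on enough arrays to be tested. The receptors and kinases had a median of -0.18, which lay at or above 0 with quantile normalization (0.01) and cyclic loess (0.05).

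No gene of antigen presentation passed. In the MHC class I list 0 of 23 tested members passed. At an unadjusted p under 0.05, 4 were higher, against 2.83% of all tested genes. The median was 0.14 and ran from 0.04 to 0.45 over the scalings, with members between -0.62 and 1.76. In 6 members the groups did not overlap on the higher side, as in 5.07% of all tested genes. B2m, the light chain, had a signal of 65032.3, 59458.6 and 51680.8 against 62426.6, 54231.5 and 48127.7, and the groups overlapped (0.10, adjusted p = 0.812). The peptide transporter Tap1 (1.32, 0.422) and the class I transactivator Nlrc5 (1.45, 0.560) had groups that did not overlap and did not pass. The immunoproteasome had a median of 0.03. Among 21 tested chemokines the median was 0.21 and 0 passed (6 higher and 2 lower at an unadjusted p under 0.05); Cxcl10, which draws T cells, had 1032.5, 664.6 and 1041 against 344.5, 289.2 and 250.2, a difference of 1.61 (adjusted p = 0.0999).

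Of the 7 called genes outside the interferon lists, Thg1l and Ifi206 are described above. Cblif, the gastric intrinsic factor that carries vitamin B12, had a signal of 45.2, 54.9 and 67.7 against 9, 7.5 and 9, was well above background on no WT array, and was at least 1.58-fold higher (adjusted p = 0.00875). Igkv8-16, an immunoglobulin kappa variable segment, was at least 3.15-fold higher (adjusted p = 0.0301), from 25.3, 13 and 15.7 to 108.8, 91.4 and 134. Both were near background, and under normexp neither passed (0.34, adjusted p = 0.746, and 0.87, 0.589). The remaining 3, Gm7609 (at least 4.11-fold), BB157357 (at least 1.21-fold) and 9030619P08Rik (log2 1.51), are predicted genes or clones outside the rule for named genes and were listed after their values were seen.

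No gene fell under limma, against 660 lower genes at an unadjusted p under 0.05. The lower genes with the smallest p were Asb16, a subunit of ubiquitin ligases, with a signal of 16.6, 10.3 and 19.5 against 69.2, 48.2 and 50.8, and prostaglandin D synthase Ptgds (-1.0, adjusted p = 0.126). Asb16 was well above background on no Irgm1-/- array and was at least 2.16-fold lower (adjusted p = 0.113). Mmp9, a gelatinase of neutrophils and macrophages, had 49.4, 57.1 and 86.5 against 227.7, 144.3 and 284.2 (-1.75, 0.213). The eosinophil ribonuclease Ear2 differed by -1.01 (0.251) and the pancreatic zymogen granule protein Sycn by -0.91 (0.261). In each of these 5, picked for their small p, the groups did not overlap, as in 12.8% of all tested genes on the lower side.

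Markers of Paneth cells, which secrete defensins into the crypts, lay below 0 in 21 of 21 tested members, with a median of -0.60 and 16 members whose groups did not overlap on the lower side; 0 passed under limma (16 at an unadjusted p under 0.05). Lyz1, their lysozyme, had a signal of 57742, 55831 and 52451.2 against 93919.6, 63127.2 and 87262.1 (-0.54, adjusted p = 0.663), and Defa29 differed by -0.73 (0.580). The summed signal of the list ran from 1104797 to 1298226 in the Irgm1-/- group and from 1470980 to 2247293 in WT. The size of this shift depended on the scaling, at -0.14 with quantile normalization and -0.20 with cyclic loess. It also followed signal: 12 of the 21 had a mean signal over 50000, and among all 213 tested genes in that range the median was -0.41, 97.7% lay below 0 and 69% had groups that did not overlap on the lower side. In the range of 10000 to 50000 the median of all 1180 genes was -0.27, and under 1000 it was between -0.01 and 0.01. The part of signal in the Paneth cell shift was not tested.

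Oxidative phosphorylation genes, the subunits of the respiratory chain, lay below 0 in 46 of 47 tested members (median -0.38; 28 with groups that did not overlap on the lower side; 0 passed under limma, 5 at an unadjusted p under 0.05). On the lower side, 12.8% of all tested genes did not overlap. Of the 47, 33 had a mean signal of 10000 to 50000, and 19 of these (57.6%) did not overlap. Among all 1180 tested genes in that range, 87.2% lay below 0 and 33.8% did not overlap on the lower side. The part of signal in this shift was not tested. The median of the list was -0.13 with quantile normalization and -0.09 with cyclic loess. Absorptive enterocyte markers had a median of -0.36 over 28 tested members (0 passed under limma, 5 lower at an unadjusted p under 0.05), and -0.10 and -0.07 under the same scalings. Fabp1, the fatty acid binding protein of liver and gut, had 1483.2, 1773.2 and 2133.6 against 2994.7, 3021.6 and 3997.3 (-0.90, adjusted p = 0.372). Lactase (Lct) ranged from 80 to 6159 in the Irgm1-/- mice and from 2720.8 to 13903.6 in WT, and Gata4, which sets proximal identity, from 93.9 to 277.9 and from 295.7 to 794.6. Mouse 2 had the lowest signal of Lct, Gata4 and Fgf15 in both groups.

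**Figure D4:**
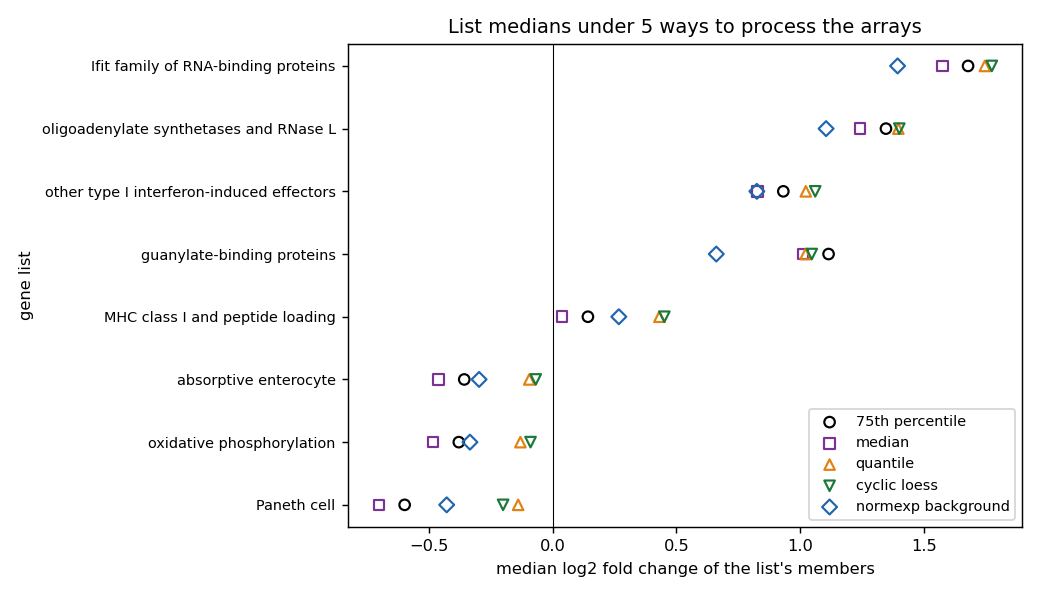
Median log2 fold change of 8 gene lists under 5 ways to process the 6 arrays, with 1 symbol per way. The Ifit, oligoadenylate synthetase, effector and guanylate-binding lists stay between 0.66 and 1.78, while the medians of the Paneth cell, oxidative phosphorylation and enterocyte lists move toward 0 under quantile normalization and cyclic loess.

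Markers of immune cells showed no member past the threshold under limma, and values beside the interferon genes are given without a test of their part. Resident macrophage markers had a median of 0.26, with 13 of 18 tested above 0. At an unadjusted p under 0.05, 7 were higher and 1 lower, against 2.83% and 4.29% of all tested genes. The summed signal of the list was 47360 to 51459 in the Irgm1-/- group and 46861 to 53047 in WT. T cell and cytotoxic markers had a median of -0.27 (4 of 24 above 0), with sums of 18285 to 28926 and 16919 to 39214. B and plasma cell markers had a median of -0.01 and sums of 64398 to 87431 and 55663 to 73965, and the plasma cell receptor Tnfrsf17 (1.36, adjusted p = 0.317) and Jchain (0.59, 0.663) had groups that did not overlap. Neutrophil markers had a median of -0.32 over 8 tested members, and the defining S100a8 and S100a9 were not above background on enough arrays to be tested. In all of these lists the summed signals of the groups overlapped. The sums of the mast cell and eosinophil list did not overlap, at 1869 to 2347 against 2425 to 2878. Its median was -0.58, with 9 of 12 tested members below 0. At an unadjusted p under 0.05, 5 were lower, against 4.29% of all tested genes. The mast cell proteases Mcpt1, Mcpt2 and Mcpt4 varied among mice, with Mcpt1 at 8.1, 103.3 and 20 against 118.8, 227.2 and 68.7 (adjusted p = 0.663). Exocrine pancreas markers had a median of -0.53, with 15 of 18 tested members below 0 and 6 lower at an unadjusted p under 0.05. Their sums of 186088 to 227861 against 257853 to 356701 did not overlap. Lower sums without overlap were also found for the goblet cell, enteroendocrine, absorptive enterocyte, Paneth cell and oxidative phosphorylation lists, among others. A sum rests mostly on its brightest genes. Among 1180 tested genes with a mean signal of 10000 to 50000, 87.2% lay below 0 and 33.8% did not overlap on the lower side. Over 50000 these shares were 97.7% and 69%. The part of signal in these lower sums was not tested. The part of immune and pancreatic cells in other results was not tested.

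The genotype difference in small intestine was set against that in the other tissues of the series, in 1 limma fit of all 20 arrays. Salivary gland came from 4 female mice of each genotype, all 9 weeks old in the Irgm1-/- group and 6, 6, 7 and 7 weeks old in WT, so that age and genotype cannot be told apart there. By the animal numbers that the files carry, the colonic macrophages came from the same 6 mice as the small intestine. Against salivary gland, 77 of 9361 genes differed in effect (0.823%), 4 with a higher and 73 with a lower signed effect in small intestine. Blocking by mouse number within each tissue, these were 19 and 131, although ages in salivary gland did not match by number. Pairs by number were checked in small intestine only. The 73 became 36, 47 and 41 without the small intestine array of Irgm1-/- mouse 1, 2 or 3. They were 39 without that of WT mouse 1. No array of another tissue was left out. Of the 20 genes called in small intestine that could be tested there, 19 also lay above 0 in salivary gland, 16 had the larger value there, and 6 differed (Thg1l, Ifit3b, Rsad2, Ifit3, Isg15 and Irgm1). Thg1l was at -0.53 in salivary gland; the fitted difference of 6.38 (adjusted p = 9.90e-10) rests on WT signals in small intestine that were not well above background, where only the bound of 18.1-fold holds. Isg15 was at 1.62 in small intestine and 3.44 in salivary gland (difference -1.83, adjusted p = 0.0369), and Irgm1 at 1.16 and 2.64 (-1.48, 0.0415). These calls depended on the setting: Isg15 passed in 8 of 18 alternatives (adjusted p 0.0213 to 0.587), Irgm1 in 6 of 18 (0.0214 to 0.400), Ifit3 in 7 of 17, Rsad2 in 11 of 17 and Ifit3b in 15 of 17.

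Genes of antigen presentation were among those with the lower effect in small intestine. B2m was at 0.10 in small intestine and 3.35 in salivary gland (difference -3.25, SE 0.30, adjusted p = 4.95e-06), the class I heavy chain H2-K1 at 0.02 and 2.28 (-2.27, 0.000211), and the immunoproteasome subunit Psmb8 at 0.56 and 3.10 (-2.54, 0.00471). The lipid-binding Apol9b was at 0.81 and 5.38 (-4.57, 3.53e-08). For genes without a detected difference between these tissues, such as Usp18 (-0.69, SE 0.50, adjusted p = 0.547) and Dhx58 (-0.82, SE 0.37, 0.396), the data do not show that the effects are equal.

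Against colonic macrophages, 259 of 13516 genes differed in effect (1.92%), 216 with a higher and 43 with a lower signed effect in small intestine. The fit took the arrays of both tissues as independent although the mice are shared. With animal as a random block both counts were larger, and when blocked by mouse number they were 661 and 387. Small intestine arrays were also left out in turn, while the macrophage array of the same mouse stayed in. The 216 became 51, 83 and 34 without that of Irgm1-/- mouse 1, 2 or 3. They were 55 and 51 without that of WT mouse 1 or 2. The 43 became 6, 12, 5, 8 and 14 in the same order. Of the 27 testable genes called in small intestine, 24 lay above 0 in macrophages, 3 had the larger value there, and 4 passed the test of the difference. Ifitm3 was at 1.19 and -0.62 (adjusted p = 0.0299) and passed in 10 of 18 alternatives. For Thg1l, Gm7609 and Cblif no WT array of the small intestine was well above background, so their fitted differences are not measured sizes; Thg1l passed in 17 of 17 alternatives, Gm7609 in 11 of 17 and Cblif in 9 of 17. Usp18 (2.68 and 2.54) and Rtp4 (1.76 and 1.72 in macrophages) gave differences of 0.14 (SE 0.54, adjusted p = 0.913) and 0.04 (SE 0.40, 0.970). The next smallest p-values after Thg1l belonged to the pancreatic enzymes Cpb1, Cel and Ctrb1. Their genotype differences in macrophages were -8.95, -7.01 and -6.94, against 0.09, -0.37 and -0.27 in small intestine.

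**Figure D5:**
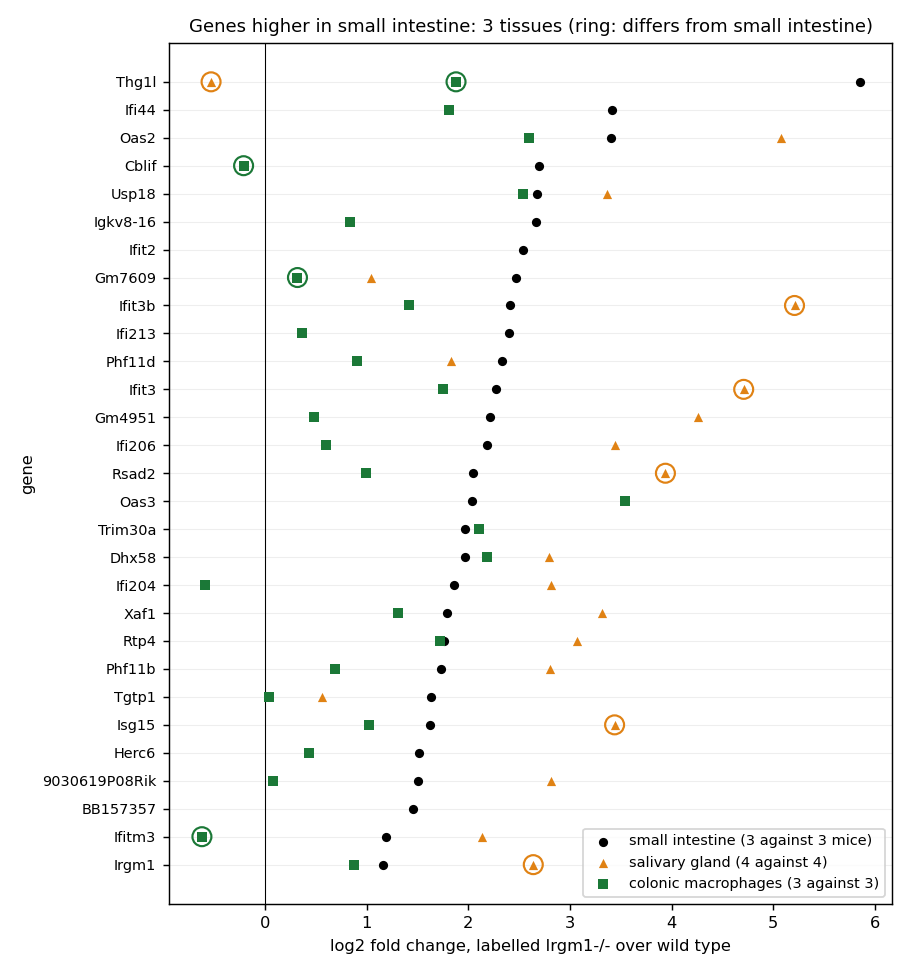
Log2 fold change (labelled Irgm1-/- over WT) of the 29 genes called in small intestine, in small intestine (black circles, 3 against 3 mice), salivary gland (orange triangles, 4 against 4) and colonic macrophages (green squares, 3 against 3), where tested. Rings mark values that differ from small intestine at an adjusted p under 0.05, 6 in salivary gland and 4 in macrophages. Points are fitted values, also for the 6 genes with no WT array of the small intestine well above background.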

How the data were processed

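Total RNA (5 µg per sample) was labelled with Cy5 and hybridised to 1-colour Agilent arrays of design 026655, per the labels and the file headers. The authors deposited 1 scanner file per array with spot intensity and per-spot flags, and a series table of processed intensity whose normalization no source used here gives. Per the file headers, Feature Extraction 11.5.1.1 subtracted background and removed spatial trends. Here log2 of the deposited processed intensity was taken after control spots and outlier spots (0.498% in small intestine) were left out. The 75th percentile of every array was then subtracted. It was taken over all probes, as for small intestine, unless every array of a tissue had most probes not well above background. In that case it was taken over the probes well above background on all arrays of the tissue. In small intestine 0 spots were saturated. Of 39429 probes, 27508 were named by accession through RefSeq GRCm38.p6, 5747 kept the file's name and 6174 had none. The array's annotation is of build mm9, and no array coordinates were used. Each gene was represented by its brightest probe on average across the 20 arrays, and 15397 of 24124 genes were well above background on at least 3 arrays and were tested. A gene missing on an array was fitted on the others (73 genes).

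Groups were compared with limma 3.58.1 in R 4.3.3 (lmFit and eBayes, Benjamini-Hochberg, threshold 0.05), after a test on simulated data. The small intestine fit used its 6 arrays, and comparisons with other tissues were interaction contrasts in 1 fit of all 20 arrays. The number of arrays limits the precision. A gene that no array of a group measured well above background has a bound in place of a fold: the mean of the brighter group over, per array, the higher of the lowest signal well above background and the probe's own. The mouse numbers of the labels were checked as pairs in small intestine only. Deviations of same-numbered mice correlated at 0.199, 0.249 and 0.393, and age and slide (2 slides) matched by number.

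Named genes were all called genes except clones and predicted genes outside the lists, and for each list the called members and those with the smallest p-values; others are named where a result turned on them. The members and the 55 gene lists were chosen with earlier results of these data known. Alternatives changed the background correction (normexp, offset 50), scaling, filter, choice of probe, outlier spots, variance model and source of values. Others changed slide, mouse number, sex or the samples in the fit, and left out each small intestine array in turn. Some genes are not reported here.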

Additional observations from a re-analysis of the deposited data

Results flagged for a closer look

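The genotype effect in small intestine differed from that in another tissue, by an interaction contrast in 1 limma fit with Benjamini-Hochberg adjustment, for the genes below; values are the signed log2 effect in small intestine minus that in the other tissue. Against salivary gland, where age and genotype cannot be told apart, 4 genes had a higher and 73 a lower signed effect in small intestine. Thg1l (6.38) and the ankyrin-repeat ligase subunit Asb2 (3.38, from 3.29 in small intestine and -0.09 in salivary gland) were 2 of the 4. Asb2, like Derl3 and Nnt below, did not pass the threshold within small intestine. The endoplasmic reticulum degradation gene Derl3 (1.69) was at 0.86 and -0.83, of opposite sign. The mitochondrial transhydrogenase Nnt (1.47) was at -0.19 in small intestine and -1.66 in salivary gland, so its effect was the smaller in size in small intestine. Among the lower were Apol9b (-4.57), Apol9a (-3.52), complement factor B (Cfb, -3.62), B2m (-3.25), H2-K1 (-2.27), H2-K2 (-2.0) and Psmb8 (-2.54). Interferon-induced genes in the same direction were Oas1a (-3.05), Ifit3b (-2.79), Ifit3 (-2.44), Irf7 (-2.27), Rsad2 (-1.89), Isg15 (-1.83) and Irgm1 (-1.48). Of these, Oas1a passed in 17 of 17 alternative settings, while Irf7 passed in 8 of 17, Ifit3 in 7 of 17, Isg15 in 8 of 18 and Irgm1 in 6 of 18. Derl3 passed in 14 of 18, Nnt in 12 of 18 and Asb2 in 15 of the 16 settings that tested it.

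Against colonic macrophages 216 genes had a higher and 43 a lower signed effect in small intestine. The higher included Ifitm3 (1.81) and, as fitted values, Thg1l (3.97), Cblif (2.91) and Gm7609 (2.15). For these 3, and for Thg1l against salivary gland, no WT array of the small intestine was well above background, so the values are not measured sizes; the bounds within small intestine were at least 18.1-fold for Thg1l, 1.58-fold for Cblif and 4.11-fold for Gm7609. Cblif passed in 9 of 17 alternative settings, Gm7609 in 11 of 17 and Ifitm3 in 10 of 18. The pancreatic enzymes Cpb1 (9.04), Ctrb1 (6.67) and Cel (6.64) were also among the higher, with differences in small intestine between -0.37 and 0.09 and of -8.95, -6.94 and -7.01 in macrophages. The lower included the phospholipase Pla2g2f (-2.50), the fucosyltransferase Fut4 (-2.14), Svip (-1.56), Fxyd3 (-1.30) and Rida (-1.18).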

How the results depend on the processing

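The 29 higher calls became 3 with normexp background correction, 1 with the mouse number as a replicate block and 1 with sex as a term, and 2 to 49 when 1 array was left out. Lower calls, 0 in the report, were 1 with each array at its median, with quantile normalization, in the authors' table and in the fit of all 20 arrays, and 0 to 1 with 1 array left out. Irgm1 stayed higher but missed the threshold with normexp (1.24), the median (1.06), no filter (1.16), the mean of its probes (1.17), the slide block (1.16), the replicate block (1.16), the sex term (1.24) and all 20 arrays (1.16); with 1 array left out it ran from 1.12 to 1.21 and passed in 1 of 6 fits.

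Genes with a higher signed effect in small intestine than in salivary gland (4) were 2 with the median, quantile normalization or detection on every array, 12 with slide as a random block and 19 with the replicate block, and 3 to 5 with 1 array left out. Lower effects (73) were 20 with normexp, 37 with the median, 18 with quantile normalization, 42 with cyclic loess, 34 without a filter, 42 with detection on every array, 124 with the slide block and 131 with the replicate block, and 36 to 73 with 1 array left out. Against macrophages, higher effects (216) were 91 with the median, 384 with quantile normalization, 487 with cyclic loess, 94 without a filter, 417 with animal and 447 with slide as a random block and 661 with the replicate block, and 34 to 196 with 1 array left out. Lower effects (43) were 17 with normexp, 4 with the median, 12 without a filter, 137 with the animal block, 202 with the slide block and 387 with the replicate block, and 5 to 37 with 1 array left out. The cause of these shifts was not tested. Only small intestine arrays were left out, and all arrays of the other tissues stayed in.

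The median of all genes ran from -0.20 to 0.02 over the settings. Of 54 lists, 18 had a median that changed sign with the scaling, none of them with a median past 0.7 in the report. Probes near background have small differences under normexp, and 6 called genes have only a bound in WT. Some brighter genes also missed the threshold under normexp with differences no smaller than in the report. Among them were Isg15 (1.69, limma adjusted p = 0.0685) and Ifitm3 (1.35, 0.0655).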
